A study of Mus musculus with 35 samples.

Results

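The response of splenic PMN-MDSC to poly(I:C)c was set beside the response of splenic M-MDSC from mice with pancreatic tumors, gene by gene, to find which changes the 2 cell types shared and which differed between them. All splenic libraries were taken, 15 of the 35 in the series, together with every gene that averaged at least 25 counts over them, 8417 of 53379. The libraries came from 8 female C57BL/6 mice, 4 untreated and 4 treated, all of which carried orthotopic tumors of T110299 cells. T110299 is a single line that arose in a mouse with pancreas-restricted Ptf1a-Cre that acted on LSL-Trp53 fl/R172H among other alleles, so these were in the implanted tumor cells and not in the host's myeloid cells. Treated mice received poly(I:C)c, which is 50 µg of poly(I:C) complexed with polyethylenimine, intravenously on days 18 and 20 after implantation, and the treatment protocol in the labels gives glucose as the control on the same days for the mice called untreated. CD11b+ cells were enriched on magnetic columns and sorted by flow cytometry into PMN-MDSC (CD11b+ Ly6Clo Ly6G+) and M-MDSC (CD11b+ Ly6Chi Ly6G-). The groups held 4 untreated PMN-MDSC, 3 treated PMN-MDSC, 4 untreated M-MDSC and 4 treated M-MDSC libraries.

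Myeloid-derived suppressor cells are neutrophil-like (PMN-MDSC) and monocyte-like (M-MDSC) cells that accumulate in tumor-bearing hosts, in the spleen among other organs, and that can restrain T cells. Double-stranded RNA in the cytosol is bound by the helicase MDA5, encoded by Ifih1, which signals through the adaptor MAVS and leads to secretion of type I interferon. Interferon then acts on any cell with the receptor IFNAR, where a complex that includes STAT2 and IRF9 assembles on the interferon-stimulated response element of target promoters and switches on antiviral, antigen presentation and feedback genes.

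The libraries held 1561674 to 4200907 counts (median 2693600), and levels are given below as counts per 1000000 (CPM) after scaling by TMM factors. The sorted cells carried the markers of their labels: summed CPM of 11 neutrophil markers ran from 25811 to 102558 in PMN-MDSC and from 932 to 8770 in M-MDSC, whereas 8 monocyte markers ran from 796 to 2299 and from 3093 to 8116. Some libraries stood apart, numbered here within each group, which is not the mouse number. Treated M-MDSC library 4 had a summed B cell marker level of 12328 CPM against 121 to 368 in the other treated M-MDSC libraries, and its plasma cell marker sum of 8397 CPM compared with at most 230. The 3 treated PMN-MDSC libraries each had 100 to 101 of the tested genes at 0 counts, against 6 to 27 in every other library, and 14456 to 15692 genes with any count, against 16358 to 20072.

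Treatment effects are log2 fold changes, treated over untreated, from edgeR's quasi-likelihood test on all 15 libraries. The difference between cell types is the PMN-MDSC effect minus the M-MDSC effect, so it is positive where treatment moved a gene further upward in PMN-MDSC. A gene was said to rise or fall at a Benjamini-Hochberg adjusted p under 0.05 with at least a 2-fold change, and the 2 effects were said to differ at an adjusted p under 0.05 for their difference. In PMN-MDSC, 467 genes rose (5.55% of those tested) and 836 fell (9.93%). In M-MDSC, 380 rose (4.51%) and 226 fell (2.69%). The effects differed for 914 genes (10.9%), of which 371 (4.41% of all tested) had the higher effect in PMN-MDSC and 543 (6.45%) in M-MDSC. Of the 914, 770 differed by at least 2-fold. A change was said to be specific to a cell type where it was called there alone and the effects also differed. Another 552 genes changed in PMN-MDSC alone and 191 in M-MDSC alone without a difference that passed. A fit with the mouse as a block, on the 7 mice with libraries of both cell types, called 614 genes, of which 540 were among the 914. The higher effect was that of PMN-MDSC for 253 of the 614 and that of M-MDSC for 361. In that fit cell types were paired by the running numbers of the deposited columns.

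The balance between those directions moved with the scaling. The share of differing genes with the higher effect in PMN-MDSC was 40.6% with TMM, 33.8% with DESeq2, 31.3% with RLE factors, 21.6% with upper-quartile scaling, 12.1% with library totals and 60.9% with limma voom. It was 24.2% when each cell type had to reach the count minimum, 25.4% with no minimum and 18.1% without untreated PMN-MDSC library 3. Likewise, rises made up 35.8% of the PMN-MDSC calls with TMM, 22.4% with upper-quartile scaling, 16% with library totals and 52.2% with voom. The median difference over all genes was 0.02 with TMM, -0.16 with upper-quartile scaling and -0.29 with library totals. The larger number of falls in PMN-MDSC is therefore given as a count under TMM only. Below, a difference held in every alternative at 0.05 where its adjusted p stayed under 0.05 with each other tool, scaling and count minimum, with the mouse block and without each library. At an adjusted p under 0.001, with no fold limit on the difference, 10 genes were called in all.

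**Figure D1:**
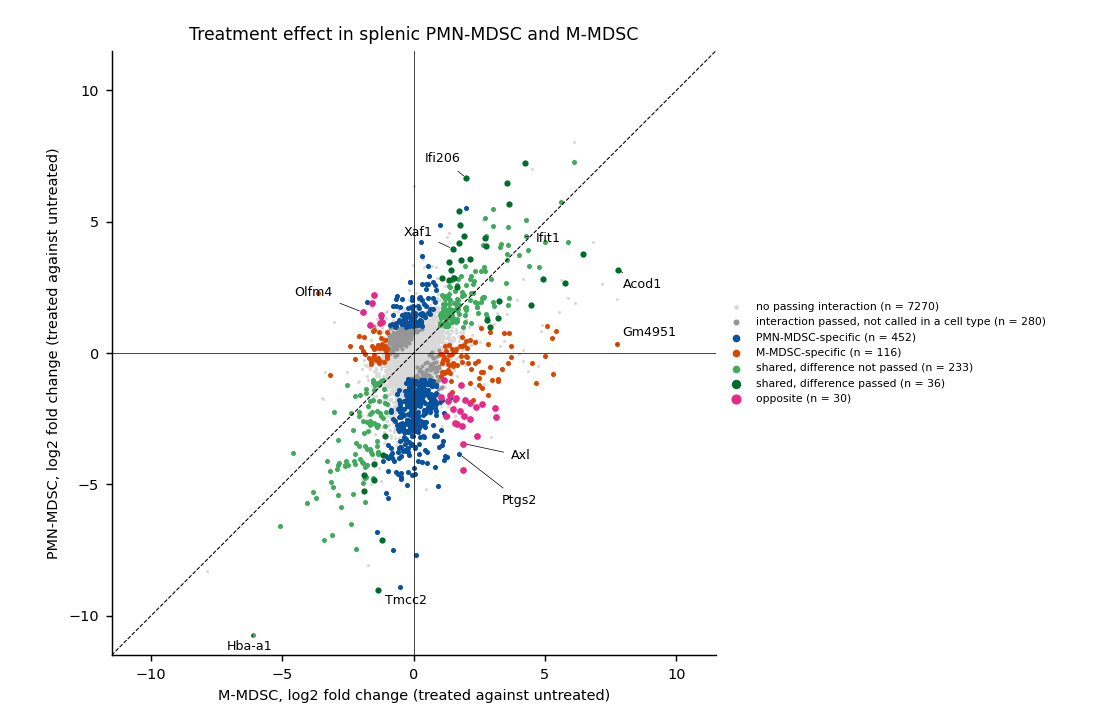
Treatment effect of each tested gene in splenic M-MDSC (horizontal axis, log2 fold change) and PMN-MDSC (vertical axis, log2 fold change), colored by response class, with equal effects on the dashed line. Of the 8417 genes, 269 changed the same way in both cell types (233 and 36 by whether the difference passed), 452 and 116 were specific to PMN-MDSC and M-MDSC, and 30 changed in opposite directions.

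Interferon-induced genes rose in both cell types, among them 28 of 38 tested antiviral effector genes. Both cell types raised 164 genes, which is 35.1% of the PMN-MDSC rises and 43.2% of the M-MDSC rises, and both lowered 105, which is 12.6% and 46.5% of the falls. For 136 of the shared rises no difference between the effects passed, with median log2 fold changes of 1.86 in PMN-MDSC and 1.67 in M-MDSC. Of the other shared rises, 19 were larger in PMN-MDSC and 9 larger in M-MDSC. The cell types came from the same mice, so mouse-to-mouse differences in exposure reach both effects.

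Ifit1, whose product binds viral RNA that lacks a methylated cap, shows the shared pattern. It stood at 51.3, 88.9, 87.7 and 93.7 CPM in untreated PMN-MDSC and at 849, 2263 and 2107 CPM in treated ones. In M-MDSC it stood at 23.4, 21.8, 26.3 and 27.8 CPM before and at 323, 736, 491 and 364 CPM after treatment. Every treated library lay far above every untreated one of its cell type. The effects were 4.44 (SE 0.363) in PMN-MDSC and 4.26 (SE 0.356) in M-MDSC, and their difference of 0.18 (SE 0.466) had an edgeR adjusted p of 0.85.

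Usp18, a protease that strips ISG15 from proteins and dampens IFNAR signaling, rose alike. Its level was 34.3, 41.8, 50 and 40.4 CPM in untreated and 351, 944 and 733 CPM in treated PMN-MDSC. In M-MDSC it was 30.3, 27.9, 33 and 28.8 CPM, then 221, 464, 261 and 229 CPM. The groups did not overlap in either cell type, and the difference of the effects was 0.73 (SE 0.417, edgeR adjusted p = 0.276). Irf7, the transcription factor that amplifies interferon production, rose by 2.83 and 2.94 on the log2 scale. Bst2 (tetherin, which holds budding virions at the cell surface) rose by 3.27 and 2.66.

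Genes of the 2'-5' oligoadenylate synthetase group, which sense double-stranded RNA, rose together: the 7 tested synthetase genes all rose in both cell types, with median effects of 2.06 (PMN-MDSC) and 1.87 (M-MDSC), beside medians of 0.02 and -0.03 over all tested genes. Of them, Oas1g alone passed the test of the difference between cell types. Of 38 antiviral effector genes, 32 rose in PMN-MDSC, 30 rose in M-MDSC and 28 rose in both. Their median effects were 2.71 and 1.52, 11 had a significantly higher effect in PMN-MDSC and 1, Slfn4, in M-MDSC. Without treated M-MDSC library 4 these last counts were 9 and 1.

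Of 20 interferon signaling and feedback genes, 3 rose and 1 fell in each cell type. Stat2 rose by 2.77 in PMN-MDSC against 1.46 in M-MDSC, a difference that did not pass (edgeR adjusted p = 0.0928). Ifnar1 had effects of -0.16 and -0.26 and passed in neither. Ifnar2, the second receptor chain, had effects of 0.69 and -0.27 that differed by 0.95 (edgeR adjusted p = 0.0183). That call was lost in 2 of the 15 fits that left out 1 library, with library totals (0.64, edgeR adjusted p = 0.0716), with no count minimum (0.86, adjusted p = 0.14) and with the minimum in each cell type (0.74, adjusted p = 0.0566). Socs1, a feedback inhibitor of JAK kinases, rose in M-MDSC by 2.01 and had an effect of 1.32 in PMN-MDSC that did not pass.

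Promoters of the genes that rose in both cell types carried the core letters of the interferon-stimulated response element more often than promoters at large. RefSeq promoters (GRCm38.p6, 250 bases before to 50 after each start) were searched on both strands for GAAANNGAA, where N is any base. Of all genes with a promoter in that set 9.76% held it (2638 of 27025), and of the tested genes 9.52% (603 of 6334). The share was 37.6% (41 of 109) for shared rises without a difference, 42.9% (6 of 14) for shared rises larger in PMN-MDSC and 16.7% (1 of 6) for those larger in M-MDSC. It was 16.5% (14 of 85) for rises specific to PMN-MDSC, 10.3% (6 of 58) for rises specific to M-MDSC, 12.5% (3 of 24) for genes that moved in opposite directions, and 8.7% to 9.34% for cell type-specific and shared falls. A second pattern, TTCNNNGAA, the core to which STAT dimers bind, was found for 9.55% of all genes and 13.8% of the shared rises without a difference. A match describes letters in a window and not a bound site.

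Windows of 30 bases around a match are shown for 3 genes of the antiviral response that rose in both cell types (Ifit1, Bst2 and Oas1g) and for 3 clustered Ifi200-family genes (Ifi206, Ifi213 and Ifi211). For Oas1g and the Ifi200 genes the effect was larger in PMN-MDSC. Capitals mark the matched core, and overlapping matches run together. Each is written 5' to 3' on the gene's own strand.
Ifit1, chr19:34640795-34640824, plus strand, match 84 bases before the start: cagtctcagtTTCAGTTTCtcactgctgac
Bst2, chr8:71537577-71537606, minus strand, match 124 bases before the start: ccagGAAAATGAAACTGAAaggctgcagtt
Oas1g, chr5:120887606-120887635, minus strand, match 12 bases before the start: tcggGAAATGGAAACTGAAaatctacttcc
Ifi206, chr1:173491339-173491368, minus strand, match 40 bases before the start: tgtctctgagGAAATCGAAagctatgaacc
Ifi213, chr1:173599326-173599355, minus strand, match 73 bases before the start: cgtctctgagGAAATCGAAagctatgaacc
Ifi211, chr1:173913064-173913093, minus strand, match 37 bases before the start: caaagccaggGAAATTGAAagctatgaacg
The windows of Ifi206 and Ifi213 were identical at 29 of 30 bases, and Ifi211 matched them at 20 and 21. Of other genes described below for effects that differed, the promoters of Ifitm3 and Eif2ak2 held 2 matches each and that of Olfm4 held 1, and no match lay in those of Xaf1, Ifi209, Acod1, Axl, Slfn4 or Fpr1.

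**Figure D2:**
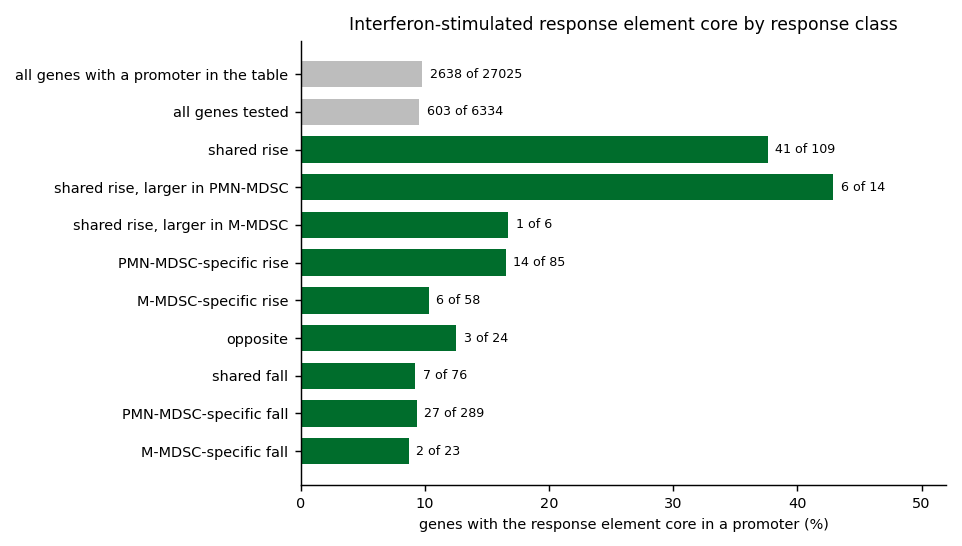
Percentage of genes with the response element core GAAANNGAA in a promoter on either strand (horizontal bars from 0), by response class, with the number of genes beside each bar. The shared rises reached 37.6% and 42.9%, against 9.52% for all tested genes.

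Among the shared rises, 19 were larger in PMN-MDSC, with median effects of 4.08 there and 1.77 in M-MDSC. Before treatment, 9 of them were lower in PMN-MDSC than in M-MDSC and none was higher, and after treatment 9 were higher in PMN-MDSC and 1, Ifi211, was lower. The untreated and treated libraries in these counts are those behind the difference of the effects, so the counts, which are not of the same genes throughout, describe levels and are not a separate test. Over all genes, 37.2% differed between the cell types before treatment and 49.3% after it.

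Xaf1, which counters an inhibitor of apoptosis, had the smallest adjusted p for a difference among the antiviral genes (chr11:72301629-72313733, GRCm38). Untreated PMN-MDSC held 17.3, 18, 14.6 and 13.9 CPM and treated ones 162, 322 and 260 CPM. Untreated M-MDSC held 37.1, 39, 30.9 and 29.6 CPM and treated ones 84.6, 118, 93.6 and 89.4 CPM. The lower of the cell types before treatment was thus the higher after it, with no overlap between any of the 4 groups. The effects were 3.96 (SE 0.226) and 1.50 (SE 0.198), and differed by 2.46 (SE 0.292, edgeR adjusted p = 5.6e-04) under every alternative at 0.05.

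Members of the Ifi200 family on chromosome 1, DNA-binding proteins that are themselves interferon-induced, rose further in PMN-MDSC. Ifi206 (chr1:173468485-173491041) stood at 16.4, 6.39, 8.59 and 6.97 CPM in untreated and 275, 1713 and 1014 CPM in treated PMN-MDSC. In M-MDSC it stood at 63.7, 67.4, 73.8 and 56.6 CPM and then at 230, 203, 353 and 267 CPM. In each cell type the treated libraries lay above the untreated ones. Untreated PMN-MDSC lay below all M-MDSC libraries, and of the treated PMN-MDSC libraries 2 lay above all M-MDSC libraries and library 1 (275 CPM) within their range, with effects of 6.66 (SE 0.53) against 2.01 (SE 0.417). The difference of 4.65 (SE 0.628, edgeR adjusted p = 0.00123) held in every alternative at 0.05. Ifi211 and Ifi204 differed by 3.66 and 2.14 in the same direction, also in every alternative at 0.05. Ifi209 differed by 3.87 and lost its call with the mouse block alone (edgeR adjusted p = 0.057), whereas Ifi213 differed by 3.51 but lost its call with the block (adjusted p = 0.0849) and in 6 of the 15 fits with a library left out. Genes of this family are close in sequence, so the split of reads among them is uncertain.

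Ifitm3 and Ifitm6, of a family of restriction factors, rose in PMN-MDSC with effects that differed from those in M-MDSC. Ifitm3, which blocks entry of enveloped viruses through endosomes, held 94.7, 178, 128 and 116 CPM in untreated and 634, 816 and 966 CPM in treated PMN-MDSC. M-MDSC held 211, 258, 200 and 218 CPM, then 279, 410, 329 and 293 CPM. Treated M-MDSC libraries lay above the untreated ones, yet the effect was 0.56 (edgeR adjusted p = 0.0803), against 2.65 in PMN-MDSC, and the difference of 2.08 (SE 0.293, adjusted p = 0.00157) held in every alternative at 0.05. Ifitm6 rose by 2.71 in PMN-MDSC and had an effect of -0.15 in M-MDSC (difference 2.86, edgeR adjusted p = 0.00458). Slfn5, of the schlafen family, rose by 2.72 in PMN-MDSC against 0.75 in M-MDSC.

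Mx2 (an antiviral GTPase related to dynamins) rose from 1.49 to 5.01 CPM in the untreated to 39 to 135 CPM in the treated PMN-MDSC libraries. In M-MDSC it rose from 19.3 to 24.2 CPM to 51.8 to 125 CPM, a difference in effects of 3.09 (SE 0.59, edgeR adjusted p = 0.00666). Ifit1bl1 differed by 3.01, Ifi27l2a by 1.77 and Ube2l6, the ISG15-conjugating enzyme, by 1.44, and these calls held in all 15 fits with a library left out. Several others were less firm: Oas1g lost its call in 8 of the 15 fits and with upper-quartile scaling, library totals and the count minimum in each cell type (edgeR adjusted p = 0.0522 to 0.0634), Ifit2 and Parp12 in 9, Herc6 in 11 and Dhx58 in 12.

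**Figure D3:**
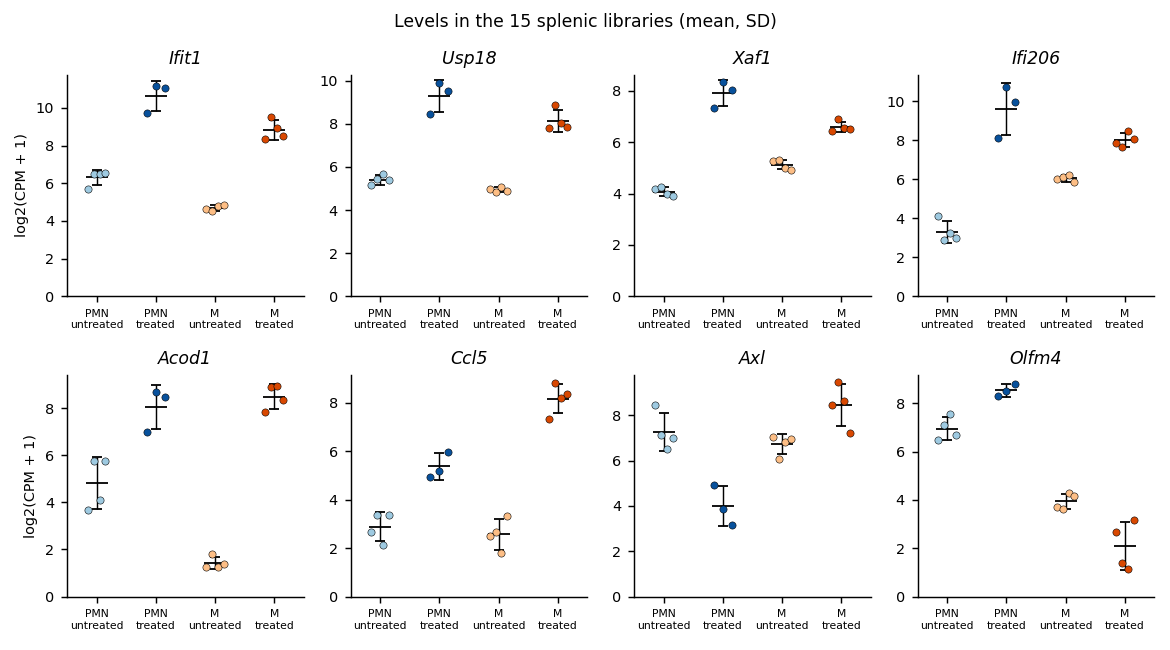
Levels of 8 genes in each of the 15 splenic libraries as log2(CPM + 1), by cell type and treatment, with a point per library and bars for the mean and SD. Ifit1 and Usp18 rise in both cell types, Xaf1 starts lower and ends higher in PMN-MDSC, Ifi206 starts lower and rises further there, Acod1 and Ccl5 rise further in M-MDSC, and Axl and Olfm4 move in opposite directions.

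Sensors of nucleic acids split. Ifih1, which encodes MDA5, a receptor for double-stranded RNA, stood at 90.5, 48.8, 87 and 86.4 CPM in untreated and 188, 575 and 415 CPM in treated PMN-MDSC. M-MDSC held 104, 97.4, 113 and 119 CPM and then 370, 465, 480 and 252 CPM. It rose without overlap in both, by 2.32 (SE 0.322) and 1.85 (SE 0.302), and the difference of 0.47 did not pass (SE 0.433, edgeR adjusted p = 0.522). Ddx58 (RIG-I), the related helicase, rose by 1.73 and 1.97. Eif2ak2, the double-stranded RNA-activated kinase PKR, rose in PMN-MDSC by 1.93 and had an effect of 0.82 in M-MDSC (difference 1.11, edgeR adjusted p = 0.0174, but 0.0651 with library totals and 0.0503 with the mouse block).

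A pair of sensor genes fell in PMN-MDSC alone. Mavs, the adaptor of MDA5, read 23.7, 5.81, 4.85 and 8.01 CPM in untreated and 1.69, 2.27 and 0.499 CPM in treated PMN-MDSC, and its effect of -2.90 differed from -0.13 in M-MDSC (edgeR adjusted p = 0.0396). The call was lost in 10 of the 15 fits with a library left out, with the mouse block (edgeR adjusted p = 0.0854) and with limma voom (adjusted p = 0.18), and these levels rest on 7 counts in the 3 treated libraries. Tlr9, the endosomal receptor for unmethylated DNA, had effects of -2.11 and 0.67 (difference -2.77, edgeR adjusted p = 0.0103, or 0.0557 with voom). Over the list, 10 of 15 sensor genes rose and 2 fell in PMN-MDSC, and 7 rose in M-MDSC.

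Another group rose further in M-MDSC. It contained 9 of the shared rises, with medians of 1.98 for PMN-MDSC and 4.47 for M-MDSC effects, and the 7 of them that differed before treatment were all higher in PMN-MDSC, in untreated libraries that also enter the difference. Acod1, the mitochondrial enzyme that makes itaconate, stood at 11.7, 52.9, 16.4 and 53 CPM in untreated PMN-MDSC and at 1.38, 2.47, 1.41 and 1.59 CPM in untreated M-MDSC. After treatment PMN-MDSC held 125, 409 and 358 CPM and M-MDSC 225, 479, 486 and 322 CPM. The cell types therefore overlapped after treatment but not before it. The effects were 3.17 (SE 0.507) and 7.77 (SE 0.654), and the difference of -4.59 (SE 0.808, edgeR adjusted p = 0.00458) held in every alternative at 0.05.

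Fpr1, a receptor for formylated bacterial peptides, followed the same course. It stood at 80.2, 141, 104 and 121 CPM in untreated and 296, 442 and 449 CPM in treated PMN-MDSC. M-MDSC went from 1.38, 2.47, 2.81 and 2.38 CPM to 30.7, 44.5, 72.2 and 60.1 CPM. All treated M-MDSC libraries stayed below all PMN-MDSC libraries, although their rise of 4.47 exceeded the 1.83 of PMN-MDSC (difference -2.63, edgeR adjusted p = 0.00298). Slfn4 rose by 2.81 and 4.91 and remained higher in PMN-MDSC after treatment. Trem1, an amplifying receptor of neutrophils and monocytes, rose by 2.56 in M-MDSC and had an effect of 0.97 in PMN-MDSC, just under the 2-fold limit, and the C-type lectin Clec4e rose by 2.81 against 1.26. These differences (-2.10, -1.59 and -1.55) held in every fit with a library left out, whereas that of Fpr2 (-1.28) was lost in 7. Neutrophil markers in M-MDSC summed to 3638 to 8770 CPM before and 932 to 5417 CPM after treatment.

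Ccl5, a chemokine that draws T cells and natural killer cells, began at similar levels in both. Untreated PMN-MDSC held 5.29, 9.3, 3.36 and 9.41 CPM and untreated M-MDSC 4.58, 5.34, 2.46 and 8.93 CPM. Treated PMN-MDSC held 29.6, 35.8 and 62.3 CPM and treated M-MDSC 162, 445, 294 and 323 CPM. The treated groups did not overlap, and the effects of 2.68 and 5.76 differed by -3.08 (SE 0.615, edgeR adjusted p = 0.0083) under every alternative at 0.05. Cxcl10, another interferon-induced T cell attractant, rose by 3.94 and 4.35 without a difference that passed (adjusted p = 0.789). Ccl4 rose in M-MDSC by 5.53, with an effect of 1.54 in PMN-MDSC that rested on 10 and 14 counts and a difference that missed the threshold (adjusted p = 0.0605). Of 18 chemokine genes only 7 reached the count minimum. Of these, 2 rose and 1 fell in PMN-MDSC and 3 rose in M-MDSC.

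Iigp1 and Gm4951, of the immunity-related GTPases, which attack the vacuoles of intracellular pathogens, rose in M-MDSC and not in PMN-MDSC. Iigp1 stood at 2.29, 8.63, 1.05 and 1.59 CPM in untreated M-MDSC and at 81.5, 77.7, 169 and 78.3 CPM in treated ones. In PMN-MDSC it read 7.24, 2.32, 0.747 and 2.79 CPM and then 3.39, 2.27 and 3.99 CPM, within the untreated range. The effects were 4.98 (SE 0.584) and -0.12 (SE 0.797), and the difference of -5.10 (SE 0.97, edgeR adjusted p = 0.00664) held in the 23 alternatives at 0.05 that tested the gene, which in PMN-MDSC averaged under the count minimum asked of each cell type. Gm4951, its neighbor in sequence and position, was at 41.3, 26, 71.3 and 36 CPM in treated M-MDSC and at 0 to 2.54 CPM in every other library. Untreated M-MDSC had 2 counts of it in all, so its difference of -7.40 (edgeR adjusted p = 0.00308) depends on the fit's prior, and its level is the firmer description.

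Of 16 tested guanylate-binding proteins and immunity-related GTPases, these 2 included, 12 rose in PMN-MDSC and 11 in M-MDSC, 8 of them in both. Igtp rose by 1.65 and 1.64, Irgm1 by 2.56 and 1.34 and Gbp5 by 2.17 and 1.85, and none of these differences passed. Gbp9 rose in PMN-MDSC by 1.80 with 0.46 in M-MDSC, a difference of 1.34 that was lost in 9 of the 15 fits with a library left out, with library totals (0.99, edgeR adjusted p = 0.063) and with the count minimum in each cell type (1.11, adjusted p = 0.0586). Gbp8 rose in M-MDSC by 1.63 with -0.21 in PMN-MDSC, and the difference did not pass (edgeR adjusted p = 0.129). The list medians were 1.98 and 1.56.

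Of 18 tested genes of inflammatory cytokines and NF-κB feedback, 5 rose and 1 fell in PMN-MDSC and 8 rose in M-MDSC. For 3 of them the effect was significantly higher in M-MDSC and for 0 in PMN-MDSC, beside 6.45% and 4.41% of all tested genes. Il1rn, the secreted antagonist of the interleukin-1 receptor, stood at 85.7, 38.6, 80.5 and 89.1 CPM in untreated and 451, 852, 559 and 205 CPM in treated M-MDSC. PMN-MDSC held 388, 514, 434 and 449 CPM before and 476, 819 and 398 CPM after treatment, which overlap. Only M-MDSC rose (2.81 against 0.34, difference -2.47, edgeR adjusted p = 0.0125). Tnf rose in M-MDSC by 2.33 with an effect of 0.42 in PMN-MDSC, and this difference was lost in 6 of the 15 fits. Ptgs2, the prostaglandin synthase COX-2, fell in PMN-MDSC from 27.9 to 69.3 CPM to 0.499 to 6.81 CPM and was at or below 2.41 CPM in all M-MDSC libraries. Its difference was -5.57 (edgeR adjusted p = 0.00791), with 5 and 18 counts in the untreated and treated M-MDSC groups. Nfkbia and Tnip1, feedback inhibitors of NF-κB, rose in both by 1.31 to 1.48.

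A set of 30 genes moved in opposite directions, 7 up in PMN-MDSC and 23 up in M-MDSC. Axl and Mertk, receptor kinases by which macrophages take up dying cells, were in the larger set. Axl stood at 355, 138, 91.1 and 128 CPM in untreated and 29.6, 13.6 and 7.98 CPM in treated PMN-MDSC. M-MDSC held 133, 67.4, 112 and 122 CPM and then 357, 711, 402 and 150 CPM. Untreated libraries overlapped between cell types, and treated ones were far apart. The effects were -3.44 (SE 0.63) and 1.90 (SE 0.493), with a difference of -5.34 (SE 0.799, edgeR adjusted p = 0.00204) under every alternative at 0.05, although the rise in M-MDSC was itself lost in 4 of the 15 fits with a library left out.

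Mertk had effects of -3.16 and 2.40 (difference -5.56, edgeR adjusted p = 0.0036). Myo10 and Myo1e (unconventional myosins) and Dnase1l3 (a secreted DNase) fell in PMN-MDSC by 1.96 to 2.43 and rose in M-MDSC by 2.62 to 3.12. Their differences, -4.57 to -5.55, held in every alternative at 0.05, except that Myo1e averaged under the minimum in PMN-MDSC and was not tested where each cell type had to reach it. Stra6l differed by -6.34, with 2 counts in all in treated PMN-MDSC. Calr, the chaperone calreticulin, fell by 1.01 in PMN-MDSC and rose by 1.16 in M-MDSC, but those single-cell-type calls were lost in 8 and 4 of the 15 fits.

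Acvrl1 and Olfm4 were in the smaller set. Acvrl1, a receptor of the TGF-beta family, went from 65.5, 50, 118 and 67.9 CPM to 523, 249 and 280 CPM in PMN-MDSC. In M-MDSC it went from 28.9, 37.4, 28.1 and 24.6 CPM to 8.18, 13.7, 9.63 and 10.3 CPM. No groups overlapped. The effects of 2.21 and -1.49 differed by 3.70 (SE 0.427, edgeR adjusted p = 5.6e-04). Olfm4, a granule glycoprotein of a neutrophil subset, rose by 1.55 and fell by 1.93 (difference 3.49, adjusted p = 0.00308), and both differences held in every alternative at 0.05.

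Axl, Mertk and C1qc belong to a list of 19 tested genes of monocyte to macrophage differentiation. Among the function lists, cell type markers aside, it had the largest median difference. Of these genes 13 fell and none rose in PMN-MDSC, while 6 rose and 3 fell in M-MDSC. For 12 the effect was significantly higher in M-MDSC (10 without treated M-MDSC library 4, with 3 rises and 3 falls in M-MDSC), and list medians were -2.37 and 0.88. Nr1h3, the oxysterol receptor LXR-alpha, stood at 26.1, 16.4, 20.7 and 27.2 CPM in untreated and 128, 204, 212 and 172 CPM in treated M-MDSC. In PMN-MDSC it read 35.9, 22.1, 4.48 and 15.3 CPM and then 16.9, 6.24 and 7.48 CPM, which overlap. The difference was -3.98 (SE 0.682, edgeR adjusted p = 0.00385).

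Vcam1, an adhesion molecule, fell from 365, 179, 107 and 177 CPM to 27.9, 14.8 and 7.98 CPM in PMN-MDSC, and Adgre1, which encodes the macrophage antigen F4/80, from 154, 155, 82.9 and 130 CPM to 26.3, 29.5 and 12 CPM. In M-MDSC the treated and untreated libraries overlapped for both genes. The differences were -3.36 and -2.60. The transcription factor Maf fell in PMN-MDSC by 2.41, with an effect of 1.26 in M-MDSC. Complement genes C1qa, C1qb and C1qc fell by 2.14 to 2.40 in PMN-MDSC and had effects of 1.19 to 1.49 in M-MDSC. Mrc1 and Cd163, scavenger receptors of resident macrophages, fell in both, by 5.09 and 5.30 in PMN-MDSC and 3.06 and 3.84 in M-MDSC. Treated libraries held at most 1.5 CPM of Cd163 in PMN-MDSC and 0.791 CPM in M-MDSC, so the sizes of its falls rest on few counts.

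Markers of red pulp macrophages moved with this list and share members with it. Their summed level was 1157 to 2068 CPM in untreated and 656 to 1119 CPM in treated PMN-MDSC, and 328 to 462 CPM and 367 to 859 CPM in M-MDSC. Of these 10 markers 7 fell in PMN-MDSC and 2 rose and 1 fell in M-MDSC. Dendritic cell markers summed to 285 to 465 CPM before and 11 to 93.1 CPM after treatment in PMN-MDSC, and to 58.4 to 166 CPM and 88.6 to 148 CPM in M-MDSC. Itgax made up most of these sums. In M-MDSC Itgax held 33.7 to 116 CPM before and 74.3 to 132 CPM after treatment. Lower there after treatment were Batf3 (16.8 to 24.3 CPM, then 3.56 to 9.65 CPM) and Cd209a (3.29 to 8.25 CPM, then 0 CPM). Flt3 overlapped (2.88 to 14.3 CPM, then 0.341 to 5.93 CPM), as did Zbtb46 and Clec9a, and Xcr1 had 0 CPM. Eosinophil markers summed to 73.9 to 118 CPM and 20.9 to 38.1 CPM in PMN-MDSC, and to 11.6 to 61.6 CPM and 6.02 to 134 CPM in M-MDSC. In PMN-MDSC the eosinophil sum was carried by Ccr3 and Siglecf, while Il5ra held 0 to 0.836 CPM before and 4.23 to 13 CPM after treatment, and Epx and Prg2 were at or below 4.23 CPM throughout. Erythroid markers summed to 74.7 to 216 CPM and 0.499 to 9.32 CPM in PMN-MDSC, and to 26.3 to 57.6 CPM and 0.602 to 3.07 CPM in M-MDSC, so they were lower after treatment in both. The part of these cells in the PMN-MDSC falls was not tested, and in bulk RNA fewer cells of a type and less RNA per cell cannot be told apart.

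**Figure D4:**
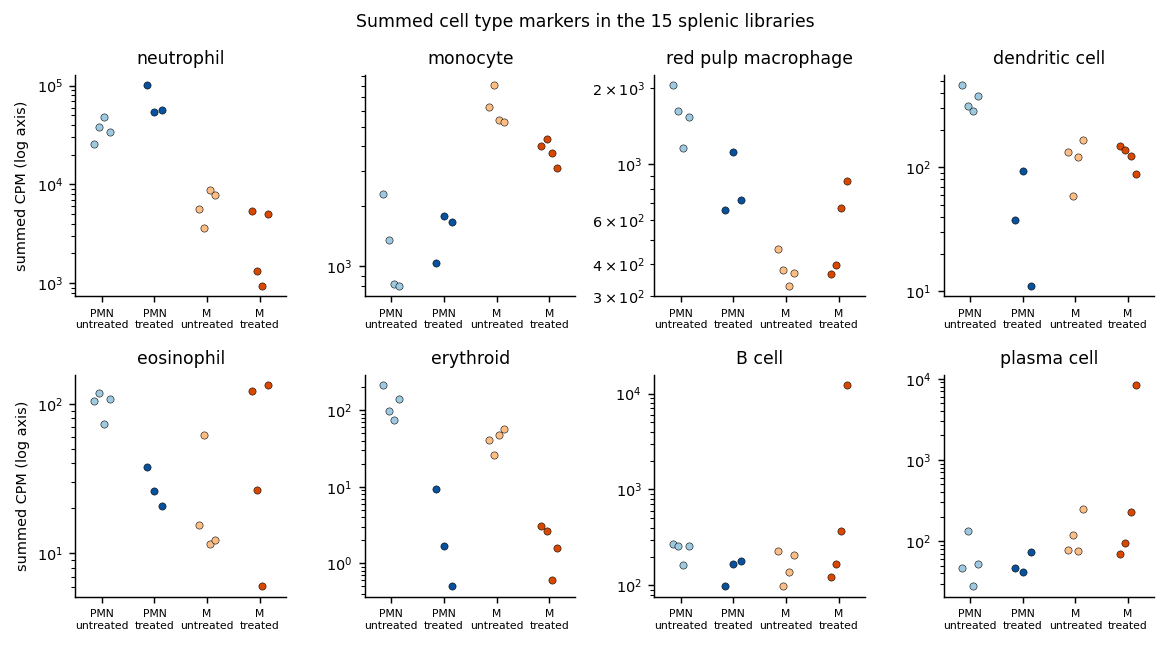
Summed CPM of 8 sets of cell type markers in each splenic library (vertical log axis), by cell type and treatment, with a point per library. Dendritic, eosinophil and erythroid sums are lower in the 3 treated than in the 4 untreated PMN-MDSC libraries, and treated M-MDSC library 4 stands apart for B and plasma cell markers.

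Genes with a fall specific to PMN-MDSC, for which the effects also differed, numbered 348, with a median effect of -2.07 there and 0.08 in M-MDSC. Of the 208 that differed between the cell types before treatment, 182 were lower in PMN-MDSC, against 1685 of 3128 over all genes, and the untreated libraries behind this count also enter the fall. Some were not seen at all after treatment. BC035044 held 18.9, 5.81, 7.09 and 4.53 CPM in untreated PMN-MDSC and 0 counts in the 3 treated libraries, while all M-MDSC libraries held 20.4 to 37.2 CPM. Against a floor of 3 counts in each library, averaged, it was at least 4.76-fold lower. On the same footing Fam78a was at least 4.13-fold, Gm47283 at least 11.1-fold and Tmcc2 at least 12.4-fold lower. Without untreated PMN-MDSC library 1, the highest for each, the bounds were 3.04-fold for BC035044, 2.93-fold for Fam78a, 5.6-fold for Gm47283 and 9.05-fold for Tmcc2. Tmcc2 also fell in M-MDSC by 1.38, a call lost in 8 of the 15 fits. These differences all passed with edgeR but not with limma voom, where adjusted p-values ran from 0.0511 to 0.176.

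Hba-a1, alpha globin, fell in both cell types. It held 132, 42.4, 48.5 and 85.4 CPM in untreated PMN-MDSC and 0 counts in the treated libraries, so it was at least 40.3-fold lower. M-MDSC went from 20.6, 15.6, 30.9 and 33.1 CPM to 0, 0.804, 0.301 and 0 CPM. Hpgd, which breaks down prostaglandins, fell by 5.09 in M-MDSC and had 2 counts in all in treated PMN-MDSC. Stard9 and Fam102b fell by 3.06 and 2.61 in PMN-MDSC and by 1.89 and 1.78 in M-MDSC.

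MHC class II genes fell in both cell types, 7 of 8 in each. H2-Ab1, a chain of the I-A molecule, stood at 879, 270, 192 and 234 CPM in untreated and 16.9, 13.6 and 9.47 CPM in treated PMN-MDSC. M-MDSC held 654, 288, 469 and 591 CPM and then 62.7, 74.8, 28.9 and 60.5 CPM. No treated library reached an untreated one, and the effects were -4.91 (SE 0.612) and -3.14 (SE 0.475). Ciita, the master regulator of the class II genes, fell by 4.49 and 3.19. The list medians were -4.21 and -2.60, and no difference between the cell types passed, the smallest adjusted p being that of H2-DMa (0.0786). Without treated M-MDSC library 4, all 8 fell in both and 1 difference passed.

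Of 23 MHC class I and antigen processing genes, 15 rose and 2 fell in PMN-MDSC and 9 rose in M-MDSC, 8 of them in both. H2-K1 rose by 2.35 and 1.57, its partner B2m by 1.44 and 1.02 and the peptide transporter Tap1 by 1.86 and 1.18. H2-Q6 and H2-Q7, non-classical class I genes that are close copies and may share reads, rose by 5.05 and 4.15 in PMN-MDSC and by 4.28 and 3.33 in M-MDSC. The only members with effects that differed were the chaperones Calr and Canx, both lower in PMN-MDSC. Canx lost its call in 6 of the 15 fits and with the mouse block (edgeR adjusted p = 0.0542).

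**Figure D5:**
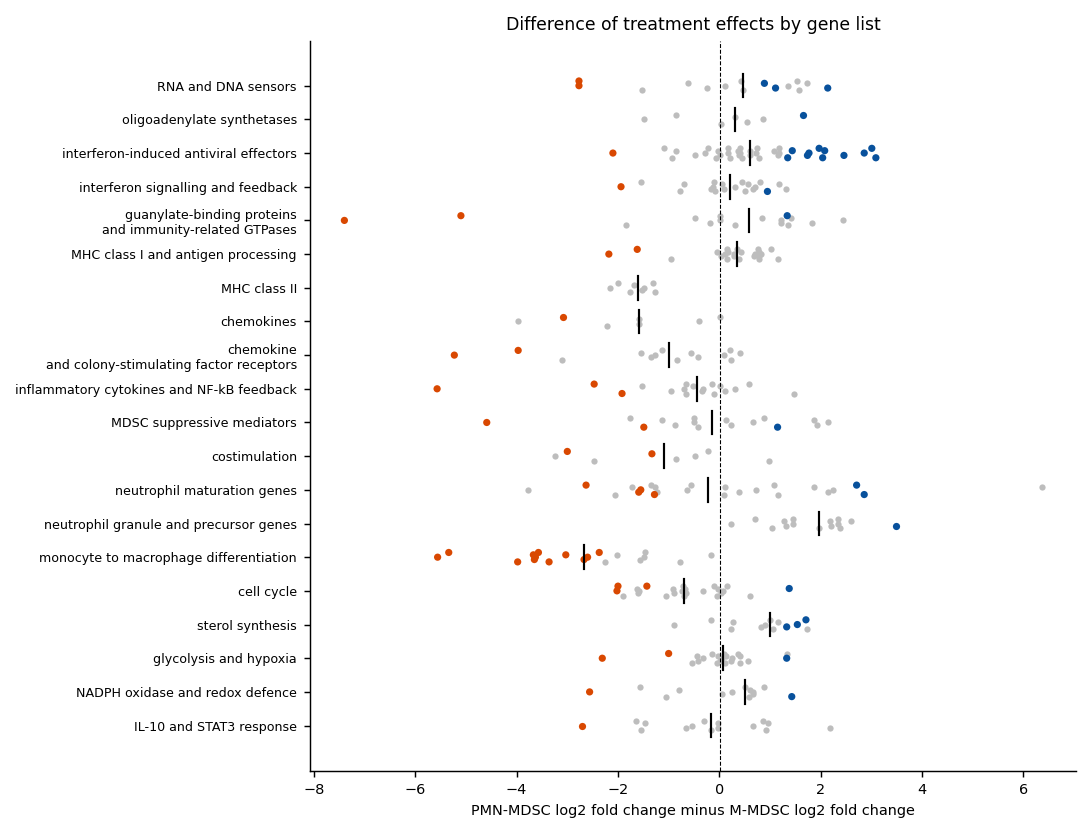
Difference of treatment effects (PMN-MDSC minus M-MDSC log2 fold change, horizontal axis) for each gene of each function list, with genes past the threshold in blue (higher in PMN-MDSC) or orange (higher in M-MDSC), the list median as a black bar and the median of all genes dashed. The macrophage list has 12 orange and no blue genes, and the antiviral list 11 blue and 1 orange.

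Among 24 genes of neutrophil maturation 10 rose in PMN-MDSC and 7 in M-MDSC, 3 in both, with 2 effects significantly higher in PMN-MDSC against 4 in M-MDSC (4 and 4 without treated M-MDSC library 4). Mmp8, neutrophil collagenase, stood at 788, 705, 1232 and 792 CPM in untreated and 4156, 4493 and 7486 CPM in treated PMN-MDSC. M-MDSC held 34.8, 106, 32.7 and 25 CPM and then 59.7, 48.5, 23.2 and 126 CPM. The PMN-MDSC groups were apart and the M-MDSC groups overlapped, but the difference of 2.24 had an edgeR adjusted p of 0.0578. Retnlg rose by 2.45 and Padi4, which citrullinates histones, by 1.09 in PMN-MDSC. Prok2, a chemokine-like peptide of neutrophils, rose from 2.32 to 3.34 CPM to 28.8, 69.2 and 580 CPM in PMN-MDSC and had 0 counts in every M-MDSC library.

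Granule genes had median effects of 1.17 in PMN-MDSC and -0.85 in M-MDSC. Of 15 tested, 4 rose in PMN-MDSC (Lcn2, Chil3, Anxa1 and Olfm4), 1 fell in M-MDSC (Olfm4) and only Olfm4 had effects that differed (4 genes without treated M-MDSC library 4). The transcripts of primary granules Mpo, Elane and Prtn3 passed in neither cell type. S100a8, a subunit of calprotectin, had effects of 1.56 and -0.59 that did not pass. Neutrophil markers as a whole summed to 25811 to 47811 CPM in untreated and 53774 to 102558 CPM in treated PMN-MDSC. Of the 11 markers 3 rose in PMN-MDSC, and the levels within the sum were uneven. Ltf (lactoferrin) held 4747 to 12052 CPM in untreated and 30908, 6686 and 2933 CPM in treated libraries, and Csf3r, the receptor for G-CSF, held 5747 to 9230 CPM and then 2207, 7549 and 3361 CPM. For both genes the treated and untreated libraries overlapped.

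Genes of the suppressive function of MDSC gave no common direction. Of 16 tested, 5 rose and 2 fell in PMN-MDSC and 4 rose in M-MDSC. Nos2, the inducible nitric oxide synthase, held 0, 1.16, 0 and 0.348 CPM in untreated PMN-MDSC and 3.39, 6.81 and 242 CPM after treatment. In M-MDSC it had 0 counts before and stood at 1.7, 1.34, 1.81 and 8.3 CPM after treatment. Most of the PMN-MDSC level came from treated library 3, and untreated PMN-MDSC held only 3 counts. Cd274, which encodes PD-L1, stood at 43.6, 29.6, 52.7 and 53.2 CPM in untreated and 123, 176, 187 and 117 CPM in treated M-MDSC. PMN-MDSC held 88.6, 121, 69.4 and 84.3 CPM and then 77.1, 228 and 112 CPM. The rise of 1.75 in M-MDSC passed and the 0.62 of PMN-MDSC did not, but the difference did not pass (-1.13, edgeR adjusted p = 0.118).

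Lgals9, the ligand of TIM-3, rose by 1.79 and 1.67. Vsir, which encodes the checkpoint protein VISTA, had effects of 0.82 and -0.33 that differed by 1.15 (edgeR adjusted p = 0.0154). That call was lost without untreated PMN-MDSC library 3 (0.93, adjusted p = 0.0659). Of 8 costimulation genes, 2 fell in PMN-MDSC and Icam1 rose in M-MDSC, by 1.39. Without treated M-MDSC library 4, 2 rose in M-MDSC, Cd40 being the second. Cd40 had effects of -1.69 and 1.56, and the difference missed the threshold (adjusted p = 0.0625).

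Of 14 receptors for chemokines and colony-stimulating factors, 6 fell and 1 rose in PMN-MDSC and 3 fell and 1 rose in M-MDSC. Ccr2, by which monocytes leave the bone marrow, stood at 1184, 1349, 1069 and 1040 CPM in untreated and 273, 156, 180 and 80.7 CPM in treated M-MDSC. PMN-MDSC held 232, 36, 67.6 and 51.9 CPM and then 2.54, 1.14 and 1.5 CPM. It fell without overlap in both. M-MDSC fell by 2.75, PMN-MDSC, where treated libraries held 8 counts in all, fell by 5.86, and the difference did not pass (edgeR adjusted p = 0.0511). Cx3cr1 fell by 4.17 in PMN-MDSC, where treated libraries held 0 to 1.5 CPM so that the size rests on few counts, and by 2.83 in M-MDSC. Ccr3, the eotaxin receptor, fell by 3.96 in PMN-MDSC with 1.27 in M-MDSC, a difference whose call was lost with voom (adjusted p = 0.154) and without treated PMN-MDSC library 3. Ccr3 is itself on the eosinophil marker list and part of its sum.

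Kdr, the vascular endothelial growth factor receptor 2, rose in M-MDSC. It stood at 0, 2.47, 4.92 and 5.36 CPM in untreated and 91.7, 250, 131 and 76.7 CPM in treated M-MDSC, against 0 to 3.06 CPM in every PMN-MDSC library. The difference of -6.09 had an edgeR adjusted p of 0.0104 and a voom adjusted p of 0.0715. Kdr is itself on the list of endothelial and stromal markers, whose sum in treated M-MDSC was 82.3 to 252 CPM, so the gene made up most of that sum.

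Of 24 cell cycle genes 1 fell in PMN-MDSC and none rose, and none rose or fell in M-MDSC, while 4 had effects that differed. Pcna, the DNA polymerase clamp, went from 20.3 to 24 CPM to 7.48 to 15.2 CPM in PMN-MDSC and from 40.7 to 49.4 CPM to 49.4 to 78.7 CPM in M-MDSC (difference -1.43, edgeR adjusted p = 0.0107). E2f2 differed by 1.38 in the other direction. Of 13 sterol synthesis genes 4 fell in M-MDSC, among them Cyp51 by 1.67, and 1 fell and 1 rose in PMN-MDSC, with list medians of -0.68 and 0.29. Msmo1, Srebf2 and Fdft1 had the higher effect in PMN-MDSC (differences 1.54, 1.33 and 1.71). Msmo1 kept its call in every alternative at 0.05. Srebf2 lost it with upper-quartile scaling (edgeR adjusted p = 0.051), library totals (adjusted p = 0.0806) and in 4 of the 15 fits with a library left out, and Fdft1 lost it in 5 of those fits.

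Of 22 glycolysis and hypoxia genes, Gpi1 rose by 1.40 in PMN-MDSC with 0.07 in M-MDSC (difference 1.33, edgeR adjusted p = 0.00844), and P4ha1, a collagen prolyl hydroxylase, fell by 1.70 with 0.60 in M-MDSC (difference -2.31, adjusted p = 0.00844). Among 13 redox genes, 3 rose and 2 fell in PMN-MDSC and 1 rose in M-MDSC, with 1 difference in each direction. Prdx1, a peroxidase, fell by 1.82 in PMN-MDSC and differed by -2.56 (edgeR adjusted p = 0.00857). Gclm differed by 1.43 the other way (edgeR adjusted p = 0.0277), a call lost in 9 of 24 alternatives. The oxidase subunits Ncf1 and Ncf4 rose in PMN-MDSC by 1.12 and 1.16, and no difference between the cell types passed for them. Of 15 genes of the IL-10 and STAT3 response, 4 rose and 1 fell in PMN-MDSC and 3 rose and 1 fell in M-MDSC. Il21r rose by 2.34 in M-MDSC with -0.37 in PMN-MDSC, a difference lost with voom (adjusted p = 0.0736) and in 3 of the 15 fits.

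Of 4 tested genes of the sorting antigens, 2 rose in PMN-MDSC and 1 in M-MDSC. Ly6c2, whose product belongs to the Ly6C pair on which the sort was gated, stood at 42.6, 65.7, 109 and 62 CPM in untreated and 772, 1400 and 1379 CPM in treated PMN-MDSC. M-MDSC held 112, 178, 102 and 99.2 CPM and then 679, 877, 823 and 907 CPM. Treated PMN-MDSC, sorted as Ly6Clo, thus held Ly6c2 RNA above every untreated M-MDSC library. The effects of 4.08 and 2.74 differed by 1.34 (edgeR adjusted p = 0.0488), a call lost in 13 of the 15 fits, with the mouse block (adjusted p = 0.0606), and with RLE factors, upper-quartile scaling, library totals and the count minimum in each cell type (edgeR adjusted p = 0.0619 to 0.0857). Ly6g rose from 36.2 to 93.3 CPM to 346 to 464 CPM in PMN-MDSC and was at or below 4.09 CPM in every M-MDSC library. Itgam (CD11b) had effects of 0.48 and 0.21 and Ptprc (CD45) of -0.13 and -0.32.

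Tumor-derived libraries of the same cell types, from the same mice, gave a comparison that the splenic tests did not use. The same fit on 15 of them, with 1 left out, called 2 of 8385 genes for a difference between cell types (0.0239%). Of the 65 named genes that differed in spleen, 61 were tested in tumor and none passed there, while 49 had the same sign. Over all 7807 genes tested in both places 62.1% had the same sign, and over the 878 that differed in spleen 78.6%, with the mice shared between the places. In tumor Iigp1 had an effect of 2.80 for M-MDSC against 0.29 for PMN-MDSC (difference -2.51, SE 0.49, edgeR adjusted p = 0.167). Xaf1 had 2.61 and 1.23 (difference 1.37, SE 0.44), Ifitm3 1.67 and 0.35 (1.33, SE 0.38) and Ifi206 3.37 and 1.96 (1.42, SE 0.52). Axl, with an effect of 1.56 in tumor M-MDSC, differed by -1.56 (SE 0.50). Slfn4, by contrast, had 3.35 and 3.13 (0.23, SE 0.88). Whether the differences in spleen and tumor themselves differed was not tested.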

How the data were processed

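RNA from sorted MDSC was made into stranded, ribosome-depleted total RNA libraries with a low-input kit and 13 PCR cycles, without molecular identifiers. The authors deposited a table of raw read counts per gene for all samples. Per the labels and the study's methods, they mapped reads to GRCm38 with ContextMap and BWA and counted them by strand with featureCounts from Subread 1.4.6-p3 on a Gencode annotation. Genes of close sequence may share reads. Symbols and positions (GRCm38) were matched for 53274 of 53379 identifiers in the reference annotation.

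The 15 splenic columns were fitted together with edgeR 4.0.16 (R 4.3.3; TMM factors, robust quasi-likelihood, 1 mean per group), on genes averaging at least 25 counts, with Benjamini-Hochberg adjustment over all 8417. limma 3.58.1 and DESeq2 1.42.0 served as alternatives, beside other scalings, count minimums and thresholds, each library left out in turn and a mouse block inferred from column numbers. A replicate is a mouse, with 3 or 4 mice per group. The main test estimated 1 spread over all groups and took the 15 libraries as independent, although 7 mice gave both cell types. Totals of 1561674 to 4200907 counts set a floor of 3 counts at 0.979 to 1.91 CPM, averaged over a group's libraries, which covers counting error only. The 21 pairs of libraries within groups differed beyond sampling noise (chi-square per degree of freedom 6.34 to 34.9). The script was tested on simulated counts. Genes and lists were chosen with earlier results of these data known. Genes are named if they had the 8 highest or 8 lowest differences, the 6 firmest shared rises or 4 firmest shared falls, the 2 smallest adjusted p-values in each direction of a list, if they encode sorting antigens, or if they were among 8 opposite genes. List members are named where a list is described. In the list medians each tested member counts once. Some named items are not reported here.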

Additional observations from a re-analysis of the deposited data

Results flagged for a closer look

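Values far from the rest of their group were found in 35 of 267 groups of 4 libraries (13.1%), where chance gives about 1 in 20. The most extreme belonged to treated M-MDSC library 4, with summed B cell markers at 12328 CPM (next 368), plasma cell markers at 8397 CPM (230), NK cell markers at 147 CPM (10.4), plasmacytoid dendritic cell markers at 119 CPM (43.3) and T cell markers at 46.7 CPM (4.82). Other treated M-MDSC values were high for Slfn4 (2605 CPM against 1761), Ifi204 (1056 against 732), Usp18 (464 against 261), Iigp1 (169 against 81.5), Srebf2 (133 against 94.8), Gm47283 (41.5 against 30.1) and Papss2 (30 against 19.8).

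In untreated PMN-MDSC, a single library, not the same for each gene, was high for Canx (369 CPM against 172), Mertk (81.6 against 27.9), Slamf7 (56 against 15.1), Gm47283 (52.4 against 14.2), Msmo1 (38.1 against 30.1), Mavs (23.7 against 8.01), Bst2 (8.14 against 4.18) and Papss2 (3.62 against 0.697), and low for Ifit1 (51.3 against 87.7) and Pcna (20.3 against 23.7). Marker sums stood apart for endothelial and stromal (11.1 CPM against 4.11), NK cell (6.97 against 1.12), basophil (1.74 against 0) and, on the low side, B cell genes (162 against 256). In untreated M-MDSC, Ifi204 (421 CPM against 295), Ly6c2 (178 against 112), Plxna1 (34.4 against 17.1) and Iigp1 (8.63 against 2.29) were high in a single library each. Ifi213 (96.7 against 114), Il1rn (38.6 against 80.5) and Selp (0 against 2.05) were low in a single library each. Eosinophil markers reached 61.6 CPM (next 15.6) and basophil markers 0 (next 0.397).

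The treatment effect differed between the cell types for 914 genes. Of the named genes given here, the log2 difference was positive for the interferon response genes Ifi206 (4.65), Ifi209 (3.87), Ifi211 (3.66), Ifi213 (3.51), Xaf1 (2.46), Ifi204 (2.14), Ifitm3 (2.08), Oas1g (1.66), Gbp9 (1.34) and Eif2ak2 (1.11) and for the interferon receptor chain Ifnar2 (0.95), which rose in neither cell type. It was also positive for the neutrophil and sorting genes Olfm4 (3.49), Ly6g (2.86), Cd177 (2.71) and Ly6c2 (1.34), and for Gm23849 (5.93), Gm4070 (3.95), Selp (3.72), Acvrl1 (3.70), Msmo1 (1.54), Gclm (1.43), E2f2 (1.38), Gpi1 (1.33), Srebf2 (1.33) and Vsir (1.15).

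The difference was negative, with the higher effect in M-MDSC, for Gm4951 (-7.40), Kdr (-6.09), Iigp1 (-5.10), Acod1 (-4.59), Ccl5 (-3.08), Il21r (-2.71), Fpr1 (-2.63), Il1rn (-2.47), Slfn4 (-2.10) and Trem1 (-1.59), which rose in M-MDSC. Genes that fell in PMN-MDSC and rose in M-MDSC were Stra6l (-6.34), Mertk (-5.56), Myo10 (-5.55), Axl (-5.34), Myo1e (-5.22), Plxna1 (-4.63), Dnase1l3 (-4.57), C1qc (-3.65) and Calr (-2.18). Genes that fell in PMN-MDSC, with no opposite change called in M-MDSC, were Gm47283 (-8.37), BC035044 (-7.79), Tmcc2 (-7.66), Fam78a (-6.69), Papss2 (-5.99), Ptgs2 (-5.57), Ccr3 (-5.23), Slamf7 (-3.0), Mavs (-2.77), Tlr9 (-2.77), Prdx1 (-2.56), P4ha1 (-2.31), Irf8 (-1.94), Canx (-1.62), Havcr2 (-1.49) and Pcna (-1.43). Mcm6 (-2.0), Cd80 (-1.33) and Pfkl (-1.0) changed by less than the fold limit or without significance in each cell type alone. With the mouse block, Gm23849, Gm4070, Ifi209, Ifi213, Selp, Ly6g, Ly6c2, Eif2ak2, Papss2, Canx, Mavs, Slamf7, Irf8 and Pfkl kept the direction of their difference but not the call (edgeR adjusted p = 0.0503 to 0.329). Over all alternatives at an adjusted p under 0.05 that tested the gene, the call was lost in 14 of 24 for Pfkl, 14 of 23 for Ly6g, 13 of 24 for Havcr2, 11 of 24 for Irf8 and Slamf7, 11 of 21 for Selp, 9 of 24 for Gm23849 and Gclm, 7 of 24 for Mcm6, 7 of 22 for Papss2 and 5 of 24 for Cd80 and Cd177.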

How the results depend on the processing

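The deposited columns carry a running number and not the mouse number of the labels. Those numbers run in blocks of 4 columns with 1 treatment each, in the order of the mice, so a pairing of cell types by mouse was inferred from them after the data were seen. Deviations from the group means correlated at 0.13 to 0.31 in 6 of the 7 pairs and at 0.01 in the pair with treated M-MDSC library 4, and in 6 pairs the PMN-MDSC library correlated best with its own partner within the treatment. With the mouse as a replicate block, 614 genes had effects that differed, and of the 65 named genes past the threshold 50 kept their call and 0 reversed. Within 1 cell type each mouse gave 1 library, so the treatment effects could not be blocked. The counts under the settings above were 914 genes with effects that differed, 1303 and 606 changed in PMN-MDSC and M-MDSC, 269 shared, 452 and 116 specific to PMN-MDSC and M-MDSC, and 30 opposite. Without a filter on low counts they were 1590, 2199, 1353, 450, 819, 303 and 94. At an adjusted p under 0.001 they were 10, 319, 171, 74, 3, 3 and 2. The 2-fold limit there stayed on the changes within a cell type, and none was set on the difference. Library totals, an alternative chosen after the data were seen, gave 690 PMN-MDSC-specific genes, and limma voom gave 17 opposite genes. The cause was not tested. Leaving out 1 library gave 570 (without treated PMN-MDSC library 3) to 1414 (without treated PMN-MDSC library 1) genes that differed, 258 to 732 PMN-MDSC-specific genes without the same libraries, 1003 to 1588 changed in PMN-MDSC, 495 to 664 in M-MDSC, 221 to 300 shared, 88 to 142 M-MDSC-specific and 18 (without untreated M-MDSC library 4) to 39 opposite. Without treated M-MDSC library 4 the counts were 834, 1325, 582, 262, 423, 120 and 28. Of 65 named genes past the threshold, 31 kept their call under every alternative at an adjusted p under 0.05 that tested them and 0 reversed. Among genes that did not pass, the difference turned negative for Ifit1 (-0.03 with upper-quartile scaling, -0.14 with library totals, -0.04 with the count minimum in each cell type, -0.10 without treated PMN-MDSC library 2 and up to 0.51 without treated PMN-MDSC library 1), for Ptprc (-0.01, -0.18 and -0.02 under those settings, -0.17 with voom, -0.11 without untreated PMN-MDSC library 2 and -0.28 without treated PMN-MDSC library 2, up to 0.45 without treated PMN-MDSC library 1) and for Itgam (-0.04 with library totals). Depth limits genes near the floor: 66 of the genes that differed had a group with at most 3 counts in every library. At an unadjusted p under 0.05, 2325 genes differed.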
